A study of Homo sapiens with 12 samples.

Results

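The regions of newly made DNA in H1 control cells were set against those in Saos-2 cells, place by place and along each autosome. The members are the autosomal regions of the 2 deposited BrdU lists, 4954 of the 5086 regions in H1 control and 6061 of the 6272 regions in Saos-2. Together they are 11015 of the 165927 autosomal regions in the 6 lists of the series. H1 is a human embryonic stem cell line. Its cells were grown in mTESR1 at passage 35 to 45 and seeded at 300000 per well with a non-targeting siRNA in DharmaFECT 1. The medium also held 10 µM HA 1077, and the cells were collected 72 h after transfection. Saos-2 is an osteosarcoma line that lacks working p53 and RB proteins and carries a rearranged karyotype. It was grown in DMEM with 10% serum and received no siRNA, so cell line, medium and treatment differ together between the lists and cannot be told apart. For each line DNA carrying BrdU (4 µg) was treated with alkali and heat, sonicated and captured with 2 µg of antibody against BrdU, then made double-stranded by random priming and sequenced as 1 library. The sources used here give neither the labelling time nor any synchronisation of the cells. The other lists come from IMR90 lung fibroblasts (BrdU and H3K18ac), from H1 cells (H3K18ac) and from H1 cells with EP300 and CREBBP silenced (BrdU), each again from 1 library. Cell identity was not checked against marker genes, since the lists hold positions and scores and no expression values.

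BrdU is a thymidine analogue that cells build into DNA while they copy it, so DNA pulled down with a BrdU antibody comes from places replicated during labelling. Human chromosomes are copied from many origins. Those in open, gene-rich chromatin tend to fire early in S phase and those in gene-poor chromatin late, and the order differs in part between embryonic and differentiated cells. H3K18ac, used below as a readout from other libraries, is laid down by p300 and CBP at active promoters and enhancers.

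The Saos-2 list was longer and its regions wider. On the autosomes H1 control regions covered 1.06 Mb with a mean width of 213 bp, and Saos-2 regions covered 2.00 Mb with a mean width of 329 bp. A region is a run of 100 bp windows. Regions of a single window made up 62.4% of the H1 control list and 38.8% of the Saos-2 list, and regions wider than 1000 bp numbered 82 in H1 control and 265 in Saos-2. The depth of either library is unknown, so a place without a region was not necessarily a place without signal. With 1 library a side no test between the cell lines was possible, and the 95% Wilson intervals given below cover the counting of regions alone.

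At an overlap of at least 1 bp, 1710 of the 4954 H1 control regions (34.5%, 33.2 to 35.9) lay in a Saos-2 region, and 1618 of the 6061 Saos-2 regions (26.7%, 25.6 to 27.8) lay in an H1 control region. Both lists held 560 kb in common, 53.0% of the H1 control bases and 28.0% of the Saos-2 bases. Wide H1 control regions were nearly all found in Saos-2. All 82 regions wider than 1000 bp were overlapped, as were 274 of 279 regions of 600 to 1000 bp (98.2%) and 589 of 713 regions of 300 to 500 bp (82.6%), against 417 of 3091 single windows (13.5%). The reverse did not reach the same level. Of the 265 Saos-2 regions wider than 1000 bp 208 (78.5%, 73.2 to 83.0) were overlapped, and of those of 300 to 500 bp 555 of 1500 (37.0%). At each of the 5 width classes the Saos-2 share lay below the H1 control share, outside its interval. These shares make no allowance for the greater number and covered length of the Saos-2 regions. With the Saos-2 list cut by score to the number of the H1 control list, the shares over all widths came close. They were 34.1% (32.8 to 35.5) for H1 control and 32.2% (30.9 to 33.6) for Saos-2.

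By the authors' score the lists crossed. Each list was divided by score into 5 equal groups, numbered from the lowest. In the highest group 948 of 991 H1 control regions (95.7%) had a Saos-2 partner and 873 of 1212 Saos-2 regions (72.0%, 69.4 to 74.5) an H1 control partner. In the group below the shares were 61.4% and 36.9%. In the middle group they were alike, 14.9% and 15.6%, with overlapping intervals, and in the lowest group 0 of 991 H1 control and 25 of 1213 Saos-2 regions (2.06%) had a partner. Without overlap in the other list were 43 H1 control regions and 339 Saos-2 regions of the highest group.

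**Figure D1:**
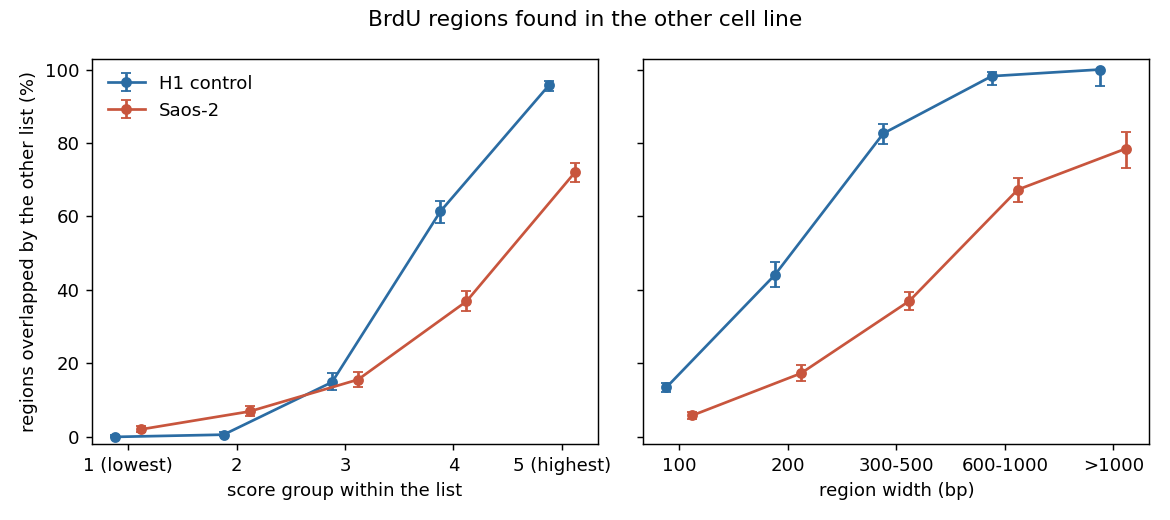
Percent of H1 control and Saos-2 BrdU regions that overlap a region of the other list, by score group within the list (left) and by region width in bp (right). Points are shares of 1 library each and bars are 95% Wilson intervals. In all 5 width classes the Saos-2 points lie below the H1 control points, whereas by score they do so in the 2 highest groups, at 72.0% against 95.7% in the highest.

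Several of the strongest regions lay at the same places in both lists (positions in build hg19). The H1 control region of highest score, on chromosome 22 at 50775501 to 50778900, matched the Saos-2 region ranked 2, at 50775501 to 50779100. The Saos-2 region ranked 1, on chromosome 12 at 132640101 to 132643100, matched the H1 control region ranked 5, at 132640301 to 132642900. On chromosome 12 at 123994901 to 123997700 both lists gave the same start and end, with rank 2 in H1 control and rank 13 in Saos-2. On chromosome 11 at 115017601 to 115019600 the edges were again identical, with ranks 7 and 71. In the last 2 pairs the edges coincided to the window although the ranks differed.

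Across the 1489 places with 1 region of each list, the Spearman correlation of the scores was 0.548 and that of the widths 0.467. Both are descriptions, since score and width move together within a list. Of the 90 such places with an H1 control region among the 100 highest by score, 45 had a Saos-2 region among the 100 highest. Their median Saos-2 rank was 98 and their lowest 1741. Among the first 10 H1 control regions the one ranked 3, of 3000 bp on chromosome 1 at 41991901 to 41994900, was the only one with 2 Saos-2 partners, which covered 1500 bp.

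Where both lists held a region, the Saos-2 region was usually the wider one. Overlapping regions were joined into 1602 shared places, of which 1489 (92.9%) held 1 region of each list. In 97 places several H1 control regions lay in 1 Saos-2 region, and in 16 places 2 Saos-2 regions lay in 1 H1 control region. The median length called at a shared place was 300 bp in H1 control (quartiles 200 and 500) and 500 bp in Saos-2 (300 and 800). Saos-2 was wider at 1047 places (65.4%, 63.0 to 67.6), equal at 242 (15.1%) and narrower at 313 (19.5%). It was at least 2 times as wide at 610 places, and H1 control at least 2 times as wide at 131.

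The widening was not tied to one side. At the places with 1 region of each list, the lower edge lay farther out in Saos-2 in 52.4% and the upper edge in 46.9%. The H1 control region lay inside a wider Saos-2 region at 843 of these 1489 places (56.6%), and the reverse held at 258 (17.3%). Start and end were identical at 142 places (9.54%), and both edges lay within 200 bp of each other at 1045 (70.2%). Offsets in which neither region contained the other numbered 246. Of the 89 places with over 1000 bp in H1 control, Saos-2 was wider at 51 (57.3%, 46.9 to 67.1). Ordered by the Saos-2 length instead, Saos-2 was wider at 186 of 213 places over 1000 bp, which follows in part from choosing on that length. A single Saos-2 window can never be the wider one, so the count of 0 of 136 such places was fixed in advance.

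**Figure D2:**
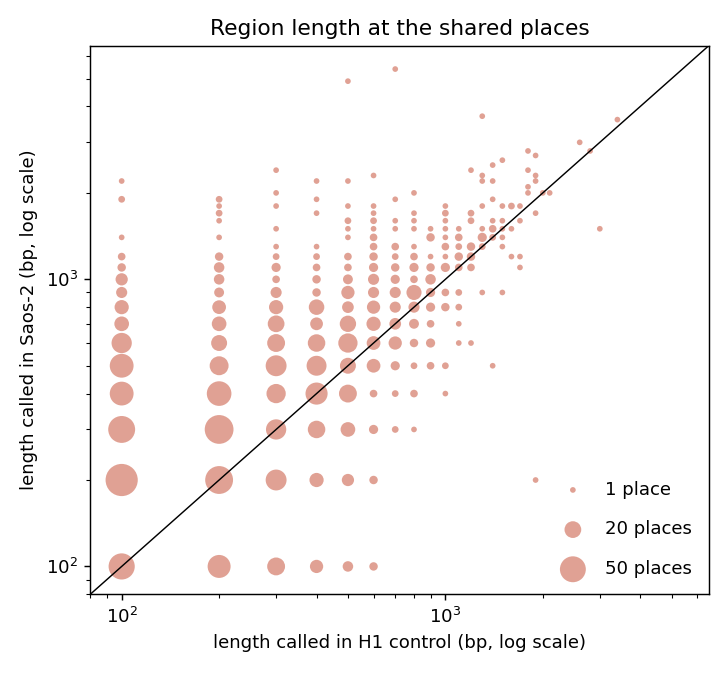
Length called in Saos-2 (vertical axis, bp) against length called in H1 control (horizontal axis, bp) at the 1602 shared places, both on log scales. The dot area grows with the number of places at that pair of lengths and the line marks equal length; 1047 places lie above the line and 313 below it.

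At the largest gains in Saos-2 a long Saos-2 region met short or broken H1 control regions. On chromosome 5 at 1043201 to 1048600 a Saos-2 region of 5400 bp, the widest of its list, held 3 H1 control regions of 700 bp in all. IMR90 fibroblasts had 100 bp there. On chromosome 1 at 53561201 to 53566100 a Saos-2 region of 4900 bp held 3 H1 control regions of 500 bp, and IMR90 had 600 bp. On chromosome 14 at 105325101 to 105328800 the lengths were 1300 bp in H1 control, 3700 bp in Saos-2 and 3000 bp in IMR90. On chromosome 19, at 28772401 to 28774600, a single H1 control window met a Saos-2 region of 2200 bp and IMR90 had none.

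Losses in Saos-2 were smaller. On chromosome 15 at 79729701 to 79731600 an H1 control region of 1900 bp met a Saos-2 region of 200 bp, the largest loss, and IMR90 had 500 bp. The second was the place on chromosome 1 at 41991901, with 3000 bp in H1 control and 1500 bp in Saos-2, where IMR90 had 3000 bp. On chromosome 3 at 194830301 to 194831700 H1 control had 1400 bp and Saos-2 500 bp. Beyond these 3 places no loss exceeded 600 bp, whereas each of the 10 largest gains was at least 1700 bp. IMR90 had a region at 899 shared places (56.1%), with a median of 400 bp against 400 bp in H1 control and 600 bp in Saos-2 at the same places. There IMR90 was nearer in length to H1 control at 433 places and nearer to Saos-2 at 302.

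Regions without a partner were mostly small. The 3244 H1 control regions without overlap had a median width of 100 bp and a maximum of 700 bp, and 2674 (82.4%) were single windows. The 4443 Saos-2 regions without overlap had a median of 200 bp and a maximum of 3000 bp, and 306 of them exceeded 500 bp, against 5 in H1 control. The first H1 control region without overlap, on chromosome 5 at 5305001 to 5305500, ranked 213, and the nearest Saos-2 region lay 650 kb away. The second, on 1q at 235750401 to 235751100, ranked 328 and was also present in IMR90. Of the 10 highest of this kind 6 were in the IMR90 list, and 4 had a Saos-2 region within 10 kb, such as that on 8p at 11313801 to 11314300 with a Saos-2 region 0.400 kb away.

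Saos-2 held regions of much higher rank that H1 control lacked. The highest, on 5p at 648401 to 651400, ranked 6 and was 3000 bp wide, with the nearest H1 control region 63.1 kb away and a region in IMR90. The second, on 1q at 142537501 to 142539800, ranked 28. It lay beside the long stretch without regions that divides the arms of chromosome 1, and the nearest H1 control region was 3018 kb away. The region on 6q at 170804001 to 170805900 ranked 41 and was in neither IMR90 nor the H1 knockdown. Of the 10 highest, 4 lay on 8q, at 140767501 to 140769700, 135472701 to 135473900, 142952901 to 142954200 and 134749501 to 134750300. Among the 100 highest Saos-2 regions without overlap 11 were on 8q, an arm with 3.53% of the Saos-2 list.

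Regions without overlap lay within 10 kb of the other list more often than the open genome did, though most had no such neighbour. Of the 3244 H1 control regions without overlap 629 (19.4%, 18.1 to 20.8) had a Saos-2 region within 10 kb, while 3.81% of the open genome lay that close to one. The open genome is the 2708 one-Mb bins with a region in any of the 6 lists. Of the 4443 Saos-2 regions without overlap 833 (18.7%, 17.6 to 19.9) had an H1 control region within 10 kb, beside 3.31% of the open genome. The share of the open genome makes no allowance for density along the chromosome, and both lists were denser near chromosome ends. Part of these were near misses: 183 H1 control and 174 Saos-2 regions abutted a region of the other list, and 291 and 294 lay within 300 bp, the smallest gap within a list. The medians to the other list were 101 kb from H1 control regions and 68.5 kb from Saos-2 regions.

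Nearness moved with the score in H1 control. In the groups from lowest to highest score, 7.37%, 10.8%, 30.0%, 46.0% and 48.8% of the H1 control regions without overlap had a Saos-2 region within 10 kb, the last from 21 of 43 regions. In Saos-2 the shares were 13%, 17.7%, 22.3%, 22.9% and 22.4%. Where an H1 control region had such a neighbour, the nearest was itself a shared Saos-2 region in 154 of 629 cases (24.5%). In the other direction this held for 282 of 833 (33.9%).

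Within its own list, 1754 of the 6061 Saos-2 regions (28.9%, 27.8 to 30.1) had another region within 10 kb, against 987 of the 4954 H1 control regions (19.9%, 18.8 to 21.1). The shares of the open genome at that distance were 3.81% and 3.31%. In H1 control the shared regions were more often in company, 30.8% against 14.2% of those without overlap, and among single windows 34.3% against 13.3%. In Saos-2 the corresponding shares were 28.7% and 29.0%. In the 50% of each list with the higher scores the order of the lists turned, to 24.4% in H1 control and 22.3% in Saos-2.

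**Figure D3:**
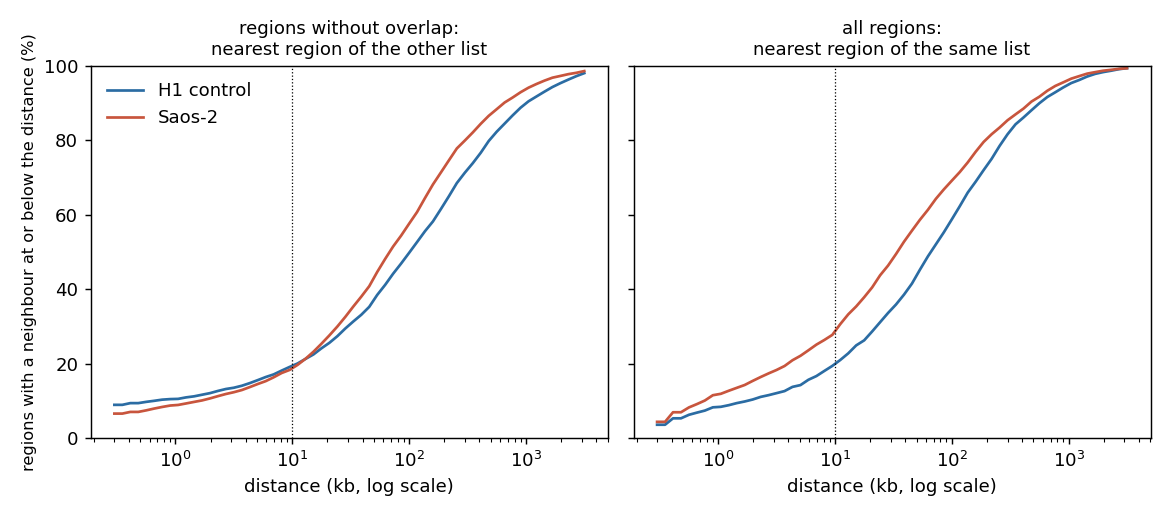
Cumulative percent of regions with a neighbour at or below a distance (kb, log scale), to the nearest region of the other list for regions without overlap (left) and to the nearest region of the same list for all regions (right). The dotted line marks 10 kb, where the curves stand at 19.4% and 18.7% on the left and at 19.9% for H1 control and 28.9% for Saos-2 on the right.

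Groups of linked regions were larger in Saos-2. With gaps of at most 10 kb, 620 Saos-2 regions (10.2%) stood in groups of 3 or more and 269 H1 control regions (5.43%) did. The largest Saos-2 group had 25 regions over 37.3 kb on chromosome 21 at 10775001 to 10812300, on the short-arm side of the stretch without regions. None overlapped an H1 control region, although 1 lay between them, and IMR90 and the H1 knockdown had no region there. The second had 12 regions on chromosome 4 at 49099301 to 49122900, 514 kb from the stretch that divides the arms. Neither H1 control nor IMR90 had a region in it. The best ranks by score in these groups were 2423 and 2238 in the Saos-2 list.

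The next Saos-2 groups were also present in H1 control. On chromosome 14 at 106029001 to 106051700 Saos-2 had 11 regions covering 6.80 kb, and H1 control had 4 regions covering 2.10 kb at 106029101 to 106040100. A second group on the same arm, at 106149601 to 106172100, had 9 Saos-2 regions beside 5 in H1 control and 4 in IMR90. The largest H1 control group had 7 regions on chromosome 22 at 43887701 to 43905200, where both Saos-2 and IMR90 had 6. The H1 control group of 6 regions on chromosome 10, at 135150701 to 135166400, had 2 Saos-2 regions and none in IMR90.

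Position along the chromosome separated the lists. Within 2 Mb of a chromosome end Saos-2 had 976 regions (16.1% of its list) and H1 control 495 (9.99%), a ratio of shares of 1.61 (1.45 to 1.80). IMR90 had 16.7% and the H1 knockdown 5.42%. Between 2 and 5 Mb from an end the shares were 16.7% in Saos-2 and 12.4% in H1 control, and between 5 and 10 Mb 13.2% and 12.3%. Within 2 Mb of the stretch that divides the arms Saos-2 had 256 regions (4.22%) and H1 control 101 (2.04%), a ratio of 2.07 (1.65 to 2.61). In the rest of the autosomes the order was the other way, with 3135 regions (63.3%) in H1 control and 3016 (49.8%) in Saos-2.

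Density differed most near the ends and beside the dividing stretch. The ends within 2 Mb held 10.7 Saos-2 and 5.44 H1 control regions per open Mb, and the rest of the autosomes 1.37 and 1.42. H1 control regions at the ends were shared more often, with 280 of 495 (56.6%) overlapped within 2 Mb of an end and 808 of 3135 (25.8%) in the rest. For Saos-2 the shares were 26.3% and 25.4%. Beside the dividing stretch 29 of the 256 Saos-2 regions (11.3%) were overlapped. Saos-2 regions there had another Saos-2 region within 10 kb in 51.2%, against 19.1% in the rest.

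By autosome the densities kept a common order (Spearman correlation 0.896 over 22 autosomes, which differ in length and gene content). Both lists were densest on chromosomes 19 and 22 and sparse on chromosomes 3, 4 and 5, H1 control lowest on chromosome 4 (1.22 per open Mb) and Saos-2 on chromosome 3 (1.06). Chromosome 19 held 244 H1 control regions, or 4.28 per open Mb, and 532 Saos-2 regions, or 9.33 per open Mb. After each list was scaled to its total, Saos-2 was higher there by 1.78-fold (1.53 to 2.07). Of the 22 autosomes 7 (31.8%) differed by over 25%, 4 higher in H1 control (18.2%) and 3 higher in Saos-2 (13.6%).

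The other 2 higher in Saos-2 were chromosome 21, by 1.54-fold with 207 regions against 110, and chromosome 20, by 1.47-fold with 269 against 150. On 21q alone Saos-2 had 175 regions against 108, a 1.32-fold excess. Higher in H1 control were chromosome 3 by 1.47-fold (1.22 to 1.76), with 247 regions against 206, chromosome 15 by 1.37-fold, chromosome 13 by 1.34-fold and chromosome 18 by 1.29-fold (0.999 to 1.66). The interval of chromosome 18 included 1. By covered length the count of autosomes past the 25% threshold was 4, with 3 higher in H1 control and 1 higher in Saos-2. Chromosomes 21 (1.16-fold) and 20 (1.24-fold) then fell below it on the Saos-2 side, and chromosome 13 (1.16-fold) on the H1 control side. Without single windows the count was 2, all higher in Saos-2.

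Over chromosome arms the contrast was sharper, and 8p was the extreme. H1 control had 93 regions on 8p and Saos-2 41. Scaled to their totals these were 18.8 and 6.76 per 1000 regions, 2.78-fold higher in H1 control (1.93 to 4.00). IMR90 had 73, or 12.8 per 1000, between the other lists, with H1 control 1.47 times and Saos-2 0.529 times its share. On 8p the shared places also had the opposite order of lengths. H1 control was wider at 12 of 16 places and Saos-2 at 3, against 65.4% of places with Saos-2 wider over all autosomes.

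The contrast ran along the whole of 8p. In steps of 10 Mb from the end, H1 control had 24, 12, 19, 27 and 11 regions and Saos-2 13, 8, 7, 8 and 5. Every step had fewer Saos-2 regions although the Saos-2 list was the longer one. The ratio for 8p stayed between 2.62 without single windows and 3.32 in lists of equal number under the 6 alternatives tried for arms. Of the 13 H1 control regions of the highest score group on 8p, 11 had a Saos-2 partner, and of all 93 regions 16 (17.2%) did, against 34.5% over the autosomes. In the other direction 16 of the 41 Saos-2 regions (39.0%) had an H1 control partner, against 26.7% over the autosomes. Both shares depend on the unequal counts for which 8p was named.

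The long arm of chromosome 8 went the other way, mostly in its last part. 8q was looked at in steps because of 8p, after its values were seen. Saos-2 had 214 regions and H1 control 130, 1.35-fold higher in Saos-2 (1.08 to 1.67). From 130 to 140 Mb Saos-2 had 43 regions and H1 control 20, and from 140 to 150 Mb Saos-2 had 108 and H1 control 43. From 40 to 80 Mb H1 control had more in each step, with 7, 13, 3 and 6 regions against 4, 7, 1 and 2. IMR90 had 102 regions from 140 to 150 Mb and 9 from 130 to 140 Mb.

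Among the 39 arms with at least 20 regions, 6 (15.4%) were past 1.5-fold higher in H1 control and 1 (2.56%) higher in Saos-2. That 1 arm was 19q, with 327 Saos-2 and 118 H1 control regions, 2.27-fold higher in Saos-2 (1.84 to 2.79). IMR90 had 153 there, so the Saos-2 share was 2.01 times that of IMR90 and the H1 control share 0.889 times. In steps of 10 Mb from 30 Mb on, Saos-2 had 75, 125 and 117 regions and H1 control 33, 42 and 40. Of the 327 Saos-2 regions on 19q 46 (14.1%) had an H1 control partner, and of the 118 H1 control regions 49 (41.5%) had a Saos-2 partner. At the 46 shared places of 19q Saos-2 was wider at 31. On 19p the ratio was smaller, with 205 against 126 regions.

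The further arms higher in H1 control were 12p, with 39 regions against 23 (2.07-fold, with an interval above 1), 1q with 168 against 121 (1.70-fold, 1.35 to 2.14), 3p with 119 against 86 (1.69-fold), 4q with 126 against 93 (1.66-fold) and 9p with 35 against 27 (1.59-fold, 0.965 to 2.61). The interval of 9p included 1. Set against IMR90 the arms differed in kind. On 12p Saos-2 had 0.409 times and H1 control 0.848 times the IMR90 share. On 4q H1 control had 2.02 times and Saos-2 1.22 times the IMR90 share.

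These smaller contrasts moved with the choice of regions more than that of 8p. Among the 50% of regions with the higher scores the ratio was 1.45 on 12p, 1.33 on 1q, 1.38 on 9p and 1.07 on 4q, and on 3p it turned to 0.879. Without single windows it was 1.19 on 12p, 1.04 on 3p, 1.26 on 4q, 1.34 on 1q and 1.63 on 9p. In the higher-scoring 50% 8p was the 1 arm past 1.5-fold, at 2.71-fold, and the Saos-2 excess on 19q was 1.44-fold. Arms with relatively more H1 control regions also had a smaller part of them in the Saos-2 list (Spearman correlation -0.704 over 39 arms, which differ in length, and both measures rest on the same counts). The share ran from 8.57% on 9p and 9.24% on 3p to 60.2% on 21q.

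**Figure D4:**
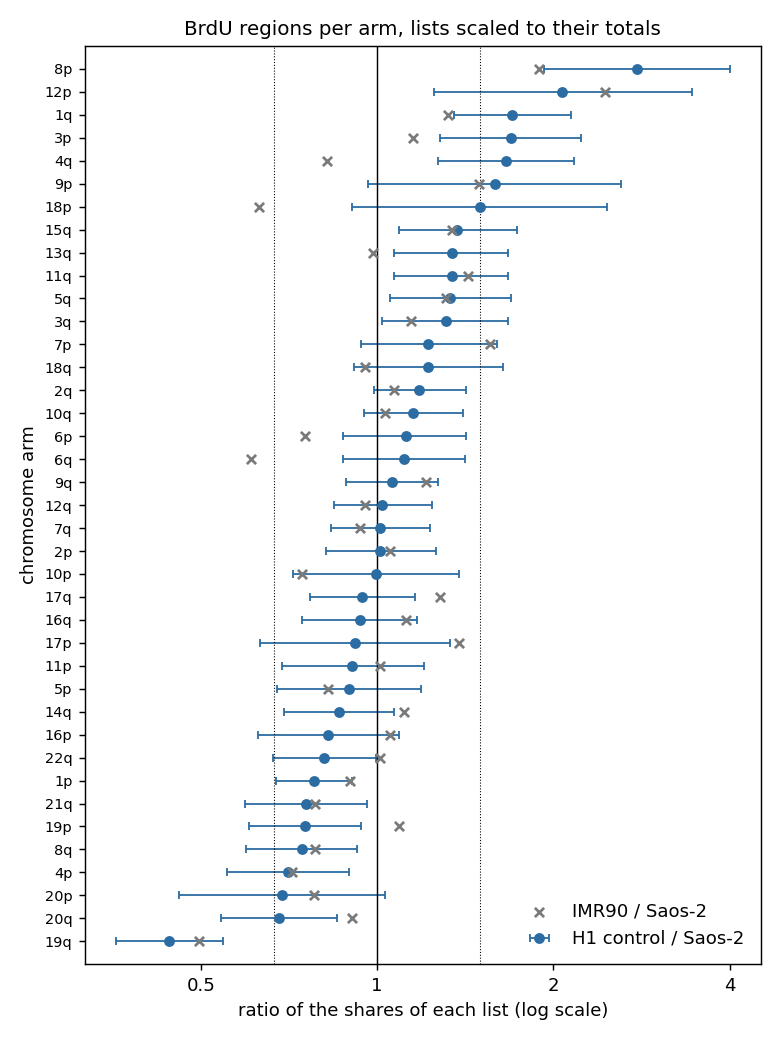
Ratio of the share of H1 control regions to the share of Saos-2 regions on each of 39 chromosome arms (dots, with 95% intervals for counting of regions; log scale), and the same ratio for IMR90 to Saos-2 (crosses). The solid line is a ratio of 1 and the dotted lines 1.5-fold; 8p is highest at 2.78 and 19q lowest at 0.441.

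In bins of 1 Mb the lists were alike in broad outline. Both had regions in 1195 of the 2708 open bins, H1 control alone in 420 and Saos-2 alone in 340. The counts correlated at 0.755 (Pearson) and 0.638 (Spearman) over the bins, and neighbouring bins are not independent. Of the 270 densest bins of each list 165 (61.1%) were the same. Among the 319 bins with at least 10 regions in both lists together, 21 (6.58%) were past 2-fold higher in H1 control and 55 (17.2%) higher in Saos-2 after scaling. A count of 0.5 regions was added to both sides for this ratio. The minimum was set on counts before scaling, so a bin could pass through 1 list alone, more readily the longer Saos-2 list. The 319 bins held 457 per 1000 H1 control regions and 584 per 1000 Saos-2 regions. The numbers of 21 and 55 bins thus depend on this rule as well as on the lists.

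The split between directions depended on the size of the bins. With bins of 2 Mb 47 of 357 were higher in H1 control and 36 in Saos-2, and with bins of 500 kb 3 and 52 of 231, since the minimum of 10 regions admits other numbers of bins. Chromosome 19 had 11 of the 55 bins higher in Saos-2 and 0 of the 21 higher in H1 control, with 34 of its bins tested. In the 55 bins 16.7% of the Saos-2 regions had an H1 control partner, beside 29.9% in all 319 bins. In the 21 bins 24.4% of the H1 control regions had a Saos-2 partner, beside 49.8% in all 319. Low shares follow in part from choosing bins where the other list is scarce. The scarcer list had higher shares, 62.5% of H1 control regions in the 55 bins and 51.4% of Saos-2 regions in the 21. IMR90 was nearer to H1 control than to Saos-2 in 29 of the 55 bins and nearer to Saos-2 in 26. In the 21 bins higher in H1 control it was nearer to H1 control in 8 and nearer to Saos-2 in 13.

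At 4 of the 10 bins with the largest surplus in Saos-2, IMR90 had no more regions than H1 control. In the bin on 19q from 41 to 42 Mb Saos-2 had 31 regions, H1 control 6 and IMR90 5. Also on 19q, from 51 to 52 Mb, the counts were 29, 9 and 7. On chromosome 21 from 10 to 11 Mb Saos-2 had 26 regions and H1 control 2, and on chromosome 4 from 49 to 50 Mb Saos-2 had 22 and H1 control 0, with none in IMR90 at either.

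At the other 6 of the 10 largest, all close to a chromosome end, IMR90 was high as well. On chromosome 12 from 132 to 133 Mb Saos-2 had 40 regions, H1 control 14 and IMR90 29. On chromosome 7 from 157 to 158 Mb the counts were 38, 15 and 23, and on chromosome 11 from 1 to 2 Mb 33, 12 and 22. On 8q from 144 to 145 Mb they were 25, 6 and 22, on chromosome 14 from 106 to 107 Mb 30, 11 and 24, and on chromosome 4 from 3 to 4 Mb 28, 10 and 18. At the bin on chromosome 7, 11 of the 15 H1 control regions were shared.

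The largest surplus in H1 control was on 8p, from 37 to 38 Mb, with 14 regions in H1 control, 3 in Saos-2 and 5 in IMR90. Next came chromosome 7 from 73 to 74 Mb, with 16, 8 and 6. On chromosome 1 from 230 to 231 Mb the counts were 9, 1 and 2, and on chromosome 12 from 48 to 49 Mb 8, 1 and 3. The bins on chromosome 13 from 46 to 47 Mb and on chromosome 17 from 47 to 48 Mb had 6 H1 control regions each and no Saos-2 region. IMR90 had 3 and 5 regions there. The bins on chromosomes 12, 13 and 17 held fewer than 10 regions of both lists together, so they are not among the 319 bins or the 21 past 2-fold. These surpluses rested on small counts, and in the bins on chromosomes 1, 12, 13 and 17 none of the H1 control regions was shared.

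**Figure D5:**
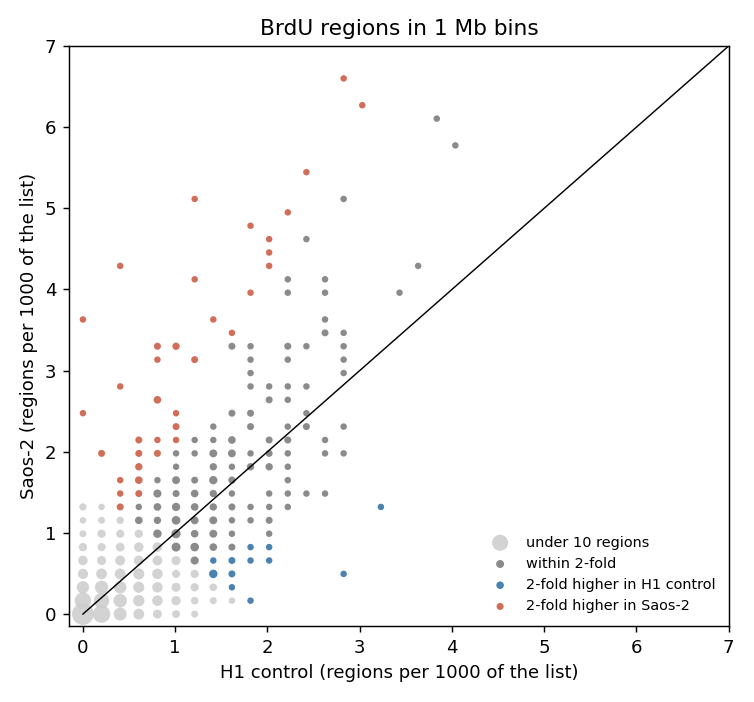
Saos-2 regions (vertical axis) against H1 control regions (horizontal axis) in the 2708 open 1 Mb bins, both per 1000 regions of the list. Dot size grows with the number of bins at that pair of values, the line marks equal shares, and colours mark bins with at least 10 regions past 2-fold; 55 are higher in Saos-2 and 21 in H1 control.

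Other libraries were then read at the regions with and without a partner. Shared H1 control regions overlapped the IMR90 BrdU list in 842 of 1710 cases (49.2%, 46.9 to 51.6), and those without overlap in 196 of 3244 (6.04%), beside 21% of all H1 control regions. Within the highest score group the shares were 62.2% (590 of 948) and 51.2% (22 of 43, 36.8 to 65.4), and in the group below 37.3% and 27.2%. For Saos-2 the shares were 55% of 1618 and 13% of 4443, beside 24.2% of all. In the highest score group, 63.0% of the shared regions and 33.0% of those without overlap were in IMR90, and in the lowest 10 of 25 and 59 of 1188 (4.97%).

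H3K18ac of H1 overlapped 349 of the 1710 shared H1 control regions (20.4%, 18.6 to 22.4) and 92 of the 3244 without overlap (2.84%), beside 8.90% of all. In the second highest score group the shares were 8.22% and 6.79%, with overlapping intervals, and in the highest 30.8% (27.9 to 33.8) and 11.6% (5 of 43, 5.07 to 24.5). Saos-2 regions overlapped the same H1 list in 25.3% when shared and in 361 of 4443 (8.13%, 7.36 to 8.97) when not, beside 12.7% of all. The Saos-2 regions that H1 control lacked met H1 H3K18ac more often than the H1 control regions that Saos-2 lacked, at a median width of 200 bp against 100 bp.

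H3K18ac of IMR90 showed no such order. It met 1.99% of the shared H1 control regions and 2.65% of those without a partner, beside 2.42% of all. For Saos-2 the shares were 2.66% and 2.39%, beside 2.46% of all. The H1 knockdown list met 154 of the 1618 shared Saos-2 regions (9.52%) and 57 of the 4443 without overlap (1.28%), beside 3.48% of all. The Saos-2 regions without overlap met H1 H3K18ac in 12.8% within 2 Mb of a chromosome end, in 7.24% in the rest of the autosomes and in 3.52% beside the dividing stretch. They were in IMR90 in 20.4%, 9.64% and 4.41% at the same places. Places where Saos-2 was wider and places where H1 control was wider met H1 H3K18ac in 28.9% (26.3 to 31.8) and 23% (18.7 to 28.0), shares whose intervals overlap. Of all regions without overlap, 2877 in H1 control (88.7%) and 3488 in Saos-2 (78.5%) were in none of the other 4 lists.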

How the data were processed

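The deposited files are lists of regions with 1 score per region, 1 list per pulled-down library. The 6 input samples were not analysed here. Bowtie 0.12.7 and build hg19 come from the submitters' processing notes. For the caller, its threshold, the removal of duplicates and the use of the inputs: not given in the sources used here. Positions step by 100 bp, and start and end both belong to the region. The score deposited by the authors has no stated meaning, so it only ranks regions within a list.

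Overlaps, distances and densities were computed with Python 3.11.15, numpy 2.4.6, pandas 2.3.3, scipy 1.17.1 and statsmodels 0.14.6, and plotted with matplotlib 3.10.9. The overlap, distance and density code was tested on simulated lists. Distances run from edge to edge, and bins take regions by midpoint. Open bins hold a region of any of the 6 lists. Arms were divided at the longest stretch without a region in any list. On chromosomes 13, 14, 15, 21 and 22 a stretch counted only if it began before 16 Mb, and short arms were left out there. This limit was set after the longest stretch of chromosomes 13, 14, 15 and 22 was seen to lie elsewhere. Intervals of ratios come from the Wilson interval of the H1 control part of the regions in both lists. Named were the 10 regions of highest score per list with and without overlap, the 10 largest gains and losses of length, the 5 largest groups per list, the extreme autosomes and arms, and the 10 bins of largest difference each way. Alternatives changed the overlap rule, distance, bins, score and width filters, merging and scaling. The members and lists were chosen with earlier results of these data known. No genome or annotation of hg19 was used here, so neither genes nor sequences are given.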

Additional observations from a re-analysis of the deposited data

Results flagged for a closer look

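The BrdU list of the H1 knockdown, in which EP300 and CREBBP were silenced, served above only as a readout beside the compared lists. It held regions at places that Saos-2 had and H1 control lacked. As given above, 57 of the 4443 Saos-2 regions without an H1 control partner overlapped a knockdown region (1.28%, 0.992 to 1.66). This share lay above the 0.0675% that 3 regions would give and below the 3.48% of all Saos-2 regions. The 0.0675% is a floor for flagging and not an expected share. Of these 57 regions 20 were in the highest score group of Saos-2, and the highest ranked 146. An H1 control region lay within 10 kb of 15, 9 were in IMR90 and 4 overlapped H1 H3K18ac. Of all 4443 Saos-2 regions without overlap, 339 were in the highest score group and 833 (18.7%) had an H1 control region within 10 kb. IMR90 held 13% of the 4443 and H1 H3K18ac met 8.13%. In the highest score group 20 of the 339 (5.90%, 3.85 to 8.94) overlapped a knockdown region, beside 1.28% of the 4443.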

How the results depend on the processing

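Of the values recomputed under other settings 31 stayed within the interval of the value given, or within 1.5 times a count, and 44 did not. All 7 added after the data were seen, which left out regions within 2 Mb of the stretch that divides the arms, stayed within. The cause was not tested unless it follows from the setting. No paired analysis was possible because each cell line has 1 library, and no library could be left out. The upper 50% of each list by score gave 60.7% for H1 control in Saos-2 and 46.5% for the reverse, 72.1% of shared places with Saos-2 wider, 23.8% and 17.0% for neighbours of H1 control and Saos-2 regions without overlap, 24.4% and 22.3% for neighbours within H1 control and Saos-2, and 3 autosomes, 1 arm and 17 of 142 bins past their fold. Without single windows these were 64.8% and 31.5%, 15.3% and 10.1%, 16% and 24.8%, 2 autosomes, 3 arms and 22 of 143 bins, with H3K18ac at 16.9% of shared H1 control regions. An overlap of 50% gave 32.5% and 18.5%, with H3K18ac at 10.6% and IMR90 at 39.1% of the shared regions. The central window gave 31.8%, 18.5%, 11.7% and 39.2% in the same order. Merging within 10 kb gave 30.6% for Saos-2 in H1 control, H3K18ac at 40.3% and IMR90 at 53.2%. Lists of equal number gave 32.2% for Saos-2 in H1 control, beside 34.1% for H1 control in Saos-2. They also gave 17.3% and 20.8% for neighbours of H1 control and Saos-2 regions without overlap, and 11 arms. Covered length gave 4 autosomes. Bins higher in H1 control and in Saos-2 numbered 47 and 36 of 357 at 2 Mb, 3 and 52 of 231 at 500 kb, 18 and 54 of 325 shifted by 500 kb, 27 and 49 of 319 by covered length, 24 and 53 of 285 in lists of equal number, 10 and 43 of 260 after merging, 3 and 19 of 143 without single windows and 4 and 13 of 142 in the upper 50%. The number of bins with at least 10 regions thus changed with the setting. By construction a distance of 5 kb lowered the neighbours of regions without overlap to 15.6% and 14.6% and those within a list to 14.3% and 22.1%, and 50 kb raised them to 37.1% and 42.9% and to 43.9% and 57.5%. Across these settings the Saos-2 list kept the higher share of regions with a neighbour in the same list except in the upper 50%.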

Other observations

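On the X chromosome, left out above, H1 control had 104 of its 5086 regions and Saos-2 199 of its 6272, beside 32 of 5743 in IMR90. These counts make no allowance for the number of X chromosomes in each line. Of the 2708 open autosomal bins 753 held neither an H1 control nor a Saos-2 region, and IMR90 had 216 regions in them. When regions of both lists were linked over gaps of at most 100 kb, 1551 of 4111 groups held both lists, with 68.3% of the H1 control and 72.9% of the Saos-2 regions in them.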
